A study of Rattus norvegicus with 4 samples.

Results

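Secreted interleukins and colony stimulating factors are the messenger proteins with which macrophages steer inflammation and the survival of other leukocytes. The 10 genes described here are Il6, Il10, Il12a, Il12b, Il15, Il23a, Csf1, Csf2, Osm and Lif. They were taken as all non-control probes whose accession maps to one of these rat genes, which gave 14 probes for the 10 genes, among 16581 genes with a named probe in all. The RNA came from NR8383 cells, an established line of alveolar macrophages obtained by washing the lung of a normal rat, used at 20 passages. All 4 cultures, labelled as biological replicates of a single group, received multi-walled carbon nanotubes (NM403) for 4 h, at a nanotube surface of 0.8 cm² for each cm² of flask. Unexposed controls belong to the study's design but were not analysed here, so no response to NM403 could be measured and no groups were tested against each other. The number of arrays limits the precision, and the SD between them stands for separate cultures only as far as the labels say so.

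Interleukin 6, oncostatin M (Osm) and leukaemia inhibitory factor (Lif) belong to one cytokine family and signal through the shared chain gp130, encoded by Il6st. Interleukins 12 and 23 are dimers that share the subunit encoded by Il12b, while the products of Il12a and Il23a are their private partners. Csf1 and Csf2 encode growth factors of macrophages, M-CSF and GM-CSF, Il15 supports lymphocytes, and interleukin 10 restrains macrophage activation. Macrophages at rest make little of most of these cytokines and switch them on at the level of transcription when they sense microbes or damage.

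Much of that switching is known to act through sequences just before the start of a gene. The set of RefSeq promoter windows used (rat build GRCr8) held those of 5 of the 10 genes, Il6, Il12a, Il23a, Csf2 and Il15. Those of Il6 and Csf2 are printed as examples of inducible cytokine promoters whose probes gave no significant signal on any array, and that of Il15 because its probe gave a weak signal on 3 arrays. Each line holds the 250 bases before the start, from 5′ to 3′ along the gene, and capitals mark matches to the 5 motifs searched.
Il6 promoter, chr4:5894576-5894825, minus strand: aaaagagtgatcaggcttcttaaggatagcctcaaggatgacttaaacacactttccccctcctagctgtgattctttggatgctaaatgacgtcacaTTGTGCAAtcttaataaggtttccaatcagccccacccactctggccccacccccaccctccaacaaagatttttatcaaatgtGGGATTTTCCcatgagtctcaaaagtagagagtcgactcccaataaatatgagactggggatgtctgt
Csf2 promoter, chr10:38889674-38889923, minus strand: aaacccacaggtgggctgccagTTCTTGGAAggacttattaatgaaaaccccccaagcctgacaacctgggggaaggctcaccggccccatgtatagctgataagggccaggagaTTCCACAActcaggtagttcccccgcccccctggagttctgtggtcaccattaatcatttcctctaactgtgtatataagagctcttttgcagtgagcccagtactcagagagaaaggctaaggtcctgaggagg
Il15 promoter, chr19:42544456-42544705, plus strand: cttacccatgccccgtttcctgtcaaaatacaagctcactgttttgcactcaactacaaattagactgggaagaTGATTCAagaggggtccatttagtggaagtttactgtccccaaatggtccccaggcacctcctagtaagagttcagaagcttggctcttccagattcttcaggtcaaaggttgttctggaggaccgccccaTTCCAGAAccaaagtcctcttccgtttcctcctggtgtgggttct
The capitals in the Il6 promoter are a match to the NF-kB motif at bases 183 to 192 (GGGATTTTCC) and a match to TTNNGNAA, a loose C/EBP pattern, at bases 99 to 106. NF-kB and C/EBP factors are known activators of Il6 in macrophages. Both strands were searched for this pattern and for the NF-kB motif. The search also covered TGANTCA, the AP-1 motif, and TTCNNNGAA, the STAT motif. The last motif searched was the TATA box, TATAAA. In the 5 windows, no match of one motif overlapped a match of another. An NF-kB match stood in 1 of the 5 promoters, that of Il6, and in 3.54% of 33469 rat promoter windows of this length. The loose C/EBP pattern stood in 4 of 5 and in 37.2% of all windows. The AP-1 motif was found in the Il15 window alone among the 5 (6.34% of all windows), the STAT motif in that of Csf2 (7.67%) and the TATA box in that of Il12a (12.9%). Matches are descriptions of letters, not binding sites, and no factor was measured. On the map, Osm and Lif are neighbouring protein-coding genes on chromosome 14, and Csf2 lies next to Il3 on chromosome 10.

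Each array carried 58717 non-control spots, of which 45.9% to 50.8% were called well above background by the scanner software. Arrays 1 and 3 resembled each other most (r = 0.996 across 7935 genes detected on all arrays), then arrays 2 and 4 (r = 0.992), and the other pairs had r of 0.967 to 0.970. These r values are across genes within one set of arrays and are given without a p-value. The software marked the array of replicate 4 for evaluation, with 2 measures of its negative controls out of range. The cells carried macrophage markers: 10 of 12 were called on all 4 arrays, among them Cd68 and Csf1r, while Marco and Adgre1 were called on none. Of all named genes, 47.9% were called on all 4 arrays. Of 24 measured genes listed as markers of other cell types, 6 were called on all arrays: Cd3d, Cd4, Nkg7, Dcn, Cdh5 and Pecam1. Another 15 were called on no array, with Cd3e, Col1a1, Epcam and Kit among them. Which cells the called ones came from, and the part of such cells in the cytokine signals, was not tested.

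The exposed macrophages gave little or no signal for these cytokines. None of the 10 genes was called well above background on all 4 arrays, whereas 47.9% of all named genes were. Counted by probe, 0 of 14 were called on all 4 arrays (46.4% of all named probes) and 2 of 14 on at least 1 array (58.4%). On at least 1 array, 2 of the 10 genes were called, Lif and Osm, against 59.6% of all named genes. The other 8 genes, Il6, Il10, Il12a, Il12b, Il15, Il23a, Csf1 and Csf2, were called on no array. Of the 56 spots that the 14 probes made on 4 arrays, 5 were called: Lif on replicates 1, 3 and 4, and Osm on replicates 1 and 3. No member spot was saturated or marked as an outlier. In RNA from whole cultures, few cells that make a cytokine and little RNA in each cell cannot be told apart. Of the 10 genes, 7 rested on 1 probe, and whether each probe responds to its transcript was not tested.

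**Figure D1:**
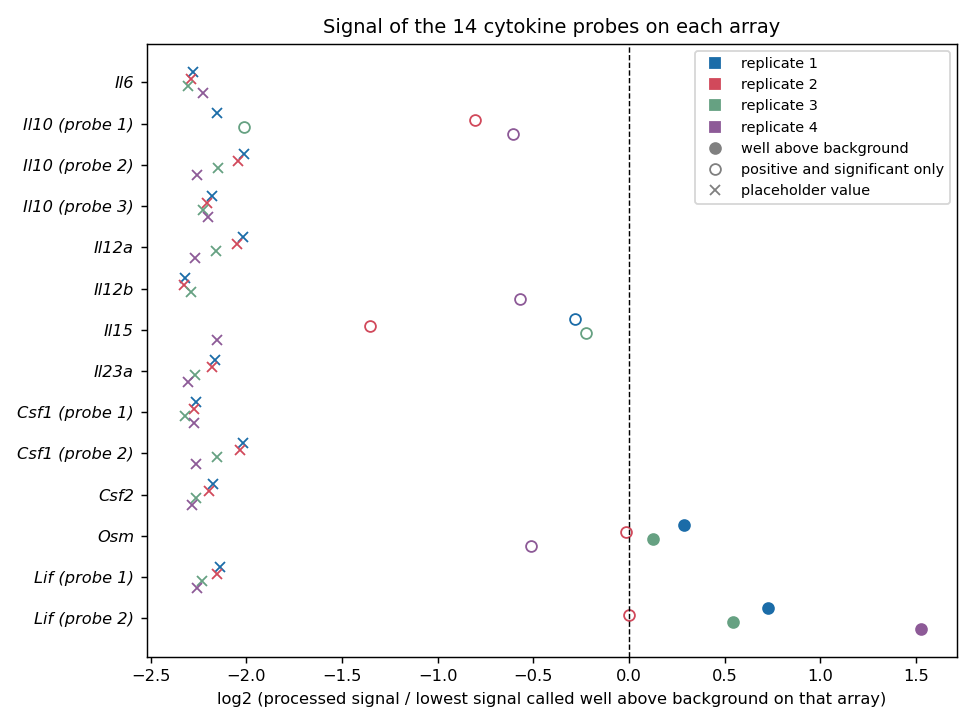
Processed signal of the 14 probes on each of the 4 arrays, on a log2 scale relative to the lowest signal called well above background on the same array (dashed line at 0). Filled circles are called spots, open circles are spots that are significant but not called, and crosses are placeholder values. All filled circles belong to Osm and to probe 2 of Lif (A_64_P115666), whose value on replicate 4 lies farthest to the right.

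Signals are given as processed intensities, the brightness of a spot after background subtraction, and the software attaches an error to each. Where a signal was not positive and significant, the files hold a small positive placeholder: on each array, 100% of those spots (19924 to 22115) lay within 2% of their own error. Placeholders of the cytokine probes ran from 7.25 to 8.96 on replicate 1, 7.44 to 9.12 on replicate 2, 7.83 to 8.83 on replicate 3 and 11.4 to 12.7 on replicate 4. They follow the noise of the array and are no levels, so the higher placeholders of replicate 4 are no sign of more transcript. The lowest intensity called well above background was 36.2, 37.4, 39.1 and 56.2 on replicates 1 to 4. It is no sharp limit of detection: the brighter Lif spot of replicate 2 stood at 100.1% of it and was not called. Of the 56 member spots, 41 held a placeholder and 15 a significant signal.

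Lif was called on more arrays than any other member, through 1 of its 2 probes. None of its calls, nor those of Osm, held when the processed intensity had to exceed the 99th percentile of the negative controls of its array (0 of 56 member spots). Lif on replicate 4 fell just short, at 162 against 166. The probe A_64_P115666, designed on the transcript NM_022196, read 59.9 ± 10.1, 37.4 ± 9.11, 56.9 ± 10.2 and 162 ± 20.2 on replicates 1 to 4 (intensity ± software error). Replicate 4, the array marked for evaluation, read highest, and replicate 2 lay at the edge of detection and was not called. Scaled to each array, the level was -5.25 ± 0.83 (log2 relative to the 75th percentile of detected probes, SD, n = 4, the uncalled reading of replicate 2 included). Level here always means this scaled log2 signal of a probe, which is compared between arrays and not between genes. The scaled signal of replicate 4 was 2.31 times that of replicate 3, the next highest, and the gap was 3.86 combined software errors. Against replicate 2 it was 3.92 times as high, with a gap of 5.34 errors. The software error covers the spot on its array and not the spread between cultures. On the log2 scale the gap of replicate 4 to the next array was 0.612 of the whole range, which did not pass Dixon's 95% critical value for 4 samples. Among replicates 1, 2 and 3 no pair was more than 1.79 errors apart, and their mean level was -5.63 ± 0.40 (SD, n = 3). Replicate 4 also read highest of the 4 arrays under the other scalings and background corrections tried, by 1.27 times (normexp) to 3.18 times (quantile normalization) over the next array. None of the 24 spots around this probe was 4 times as bright on replicate 4 as the median of the other arrays, with signals under 50 set to 50. The Lif spot itself did not reach that mark, so a local rise of its size would not have been counted.

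The second Lif probe, A_44_P1112916 on the predicted transcript XM_008770359, held placeholders on all 4 arrays, also on replicate 4. The 2 probes therefore disagreed, and the Lif signal rests on 1 spot per array. On replicate 4, 3 of the 308 negative control spots reached the background-subtracted signal of the brighter probe, against 6, 9 and 10 on replicates 1, 2 and 3.

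**Figure D2:**
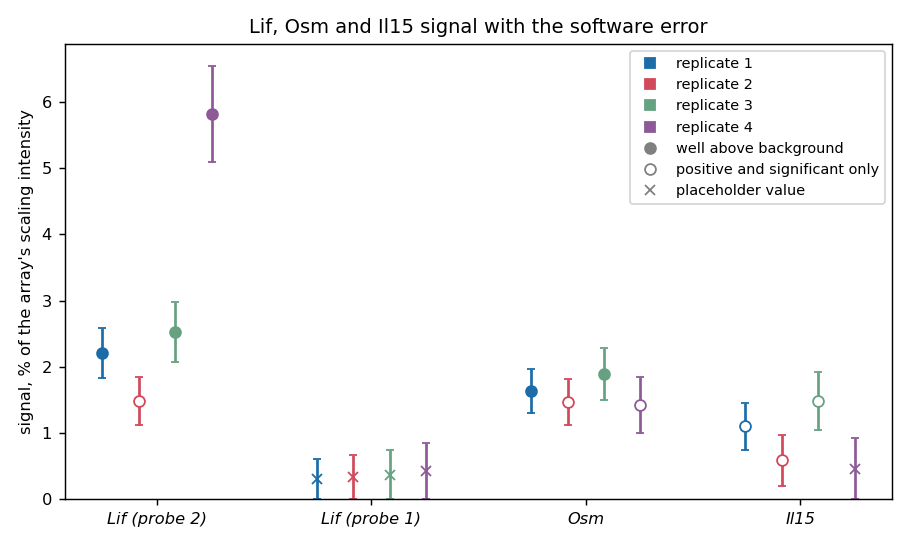
Signal of both Lif probes, Osm and Il15 on each array, as a percentage of the intensity that scales the array, and the bars are the software's error of the spot. The brighter Lif probe (probe 2) reads 5.82% on replicate 4 and 1.49% to 2.52% on the other arrays, while the Osm values overlap within their errors.

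Osm was the second gene with a called signal. Its single probe read 44.2 ± 8.95, 37.0 ± 8.81, 42.6 ± 8.90 and 39.4 ± 11.8 on replicates 1 to 4. The 4 arrays lay close together, and the calls on replicates 1 and 3 separate values that do not differ beyond their errors: the largest gap between any pair of arrays was 0.804 combined errors. The signal was significant on all 4 arrays, with a mean level of -5.97 ± 0.18 (SD, n = 4) that includes the uncalled readings of replicates 2 and 4. Between 7 and 11 of the 308 negative control spots on each array read as high as Osm did. As 7 to 11 negative controls per array were themselves called well above background, the Osm signal stood at the rim of what the arrays could separate from background. Osm and Lif, the neighbours on chromosome 14, were also the members with a significant signal on every array; 58.7% of all named genes had that.

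Il15, which encodes a cytokine that sustains natural killer cells and memory T cells, gave a weak signal. Its probe read 29.7 ± 9.62, 14.6 ± 9.53 and 33.4 ± 9.76 on replicates 1, 2 and 3, and held a placeholder of 12.7 on replicate 4. Replicates 1 and 3 read higher than replicate 2, but no pair of arrays was more than 1.62 combined errors apart, so no order of the arrays is read from them. The gap between replicates 3 and 2 was 1.56 combined errors, and none of the 4 spots was called. All 4 readings were below the lowest called intensity of their array, at 22.5% to 85.5% of it.

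Il10 had 3 probes that disagreed. The probe A_44_P1082089 held a placeholder of 8.13 on replicate 1 and read 21.4 ± 8.49, 9.70 ± 8.27 and 37.0 ± 12.2 on replicates 2, 3 and 4. Replicates 2 and 4 read highest, but the widest gap between significant readings was 1.57 combined errors, so no order of the arrays is read here either. The other 2 probes of Il10 held placeholders on all 4 arrays, one of them (A_64_P122382) on the same transcript. No probe of this anti-inflammatory cytokine was called on any array.

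The subunit genes of interleukins 12 and 23 were at the limit of detection or below it. Il12b, the shared subunit, held placeholders on replicates 1, 2 and 3. On replicate 4, the array marked for evaluation, it read 37.9 ± 13.4, at 67.3% of the lowest called intensity of that array. Il12a and Il23a, the private subunits, held placeholders on all 4 arrays. For Il12a the spot itself measured 48, 54, 40 and 51.5 against a local background of 38, 40, 41 and 43 on replicates 1 to 4. On replicate 3 the spot was no brighter than the slide around it.

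Il6, Csf1 and Csf2 gave no significant signal on any array. The Il6 spot measured 47, 56, 48 and 60 on replicates 1 to 4, against a local background of 38, 43, 42 and 51. After background subtraction Il6 was negative on all 4 arrays, at -8.40, -2.11, -8.31 and -9.36, where the median negative control read -6.34, -6.48, -7.10 and -10.3. Between 72 and 203 of the 308 negative controls were as bright as Il6, so its spot could not be told from spots with no target. The 2 Csf1 probes, on NM_023981 and on the predicted transcript XM_008761429, agreed in holding placeholders on all arrays. The Csf2 spot was 1.11 to 1.52 times as bright as its local background, and 29 to 106 negative controls were as bright or brighter.

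**Figure D3:**
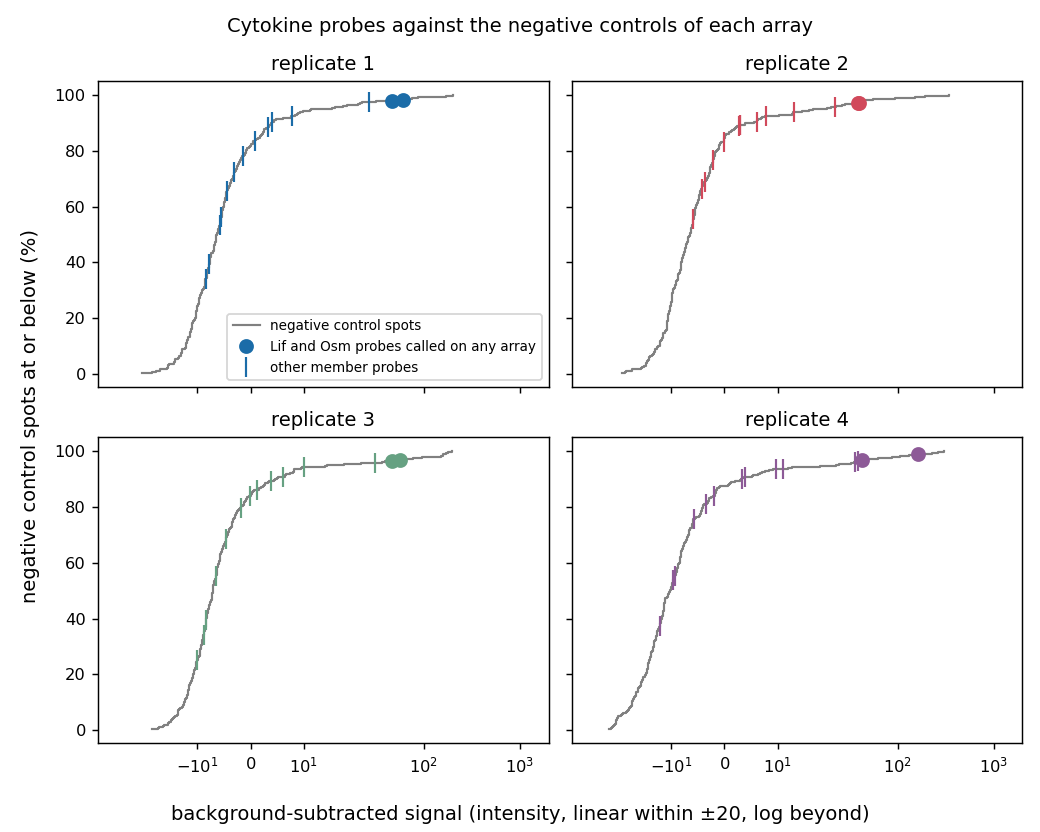
Share of the 308 negative control spots of an array (vertical axis, %) that lie at or below a given background-subtracted signal (horizontal axis, intensity, symmetric log scale), 1 panel per array. Coloured marks place the cytokine probes on that curve: circles are the Lif and Osm probes that were called on any array, and ticks are the other 12 probes. The circles sit near the upper end of the curve, with 3 to 11 negative controls at or above them, and the ticks spread from there down its steep middle. The horizontal axis is linear near 0 and logarithmic beyond.

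Over the 48 spots of the 12 probes called on no array, the spot was 0.927 to 2.36 times as bright as its local background, with a median of 1.30. Between 2.60% and 75% of the negative controls of the array were at or above them. Around any member spot, at most 1 neighbouring spot was 4 times as bright as its median on the other arrays, with signals under 50 set to 50. A smaller rise would not have been counted. Since no member was called on all 4 arrays, no genes of like pattern were sought and no median spread was formed. Over all 7935 genes detected on all arrays the median SD was 0.234, which the SD of Osm lies below and that of Lif above.

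A cell senses these cytokines through paired receptor chains. Of 15 receptor chains listed, 13 had a named probe and 7 (53.8%) were called on all 4 arrays, near the 47.9% of all named genes. Both chains for interleukin 6 were called: Il6r read -3.15, -2.81, -3.23 and -2.49 on replicates 1 to 4 (level), from 1 of its 2 probes, and the shared chain Il6st read -1.11, -1.66, -1.30 and -1.58. Lifr and Osmr, which pair with Il6st to receive Lif and Osm, were called on no array. For interleukin 10, Il10rb was called on all arrays (level -0.19 ± 0.16, SD, n = 4) and the ligand-binding Il10ra on none, although its signal was significant on all 4 arrays.

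The colony stimulating factors themselves were not called, while receptor genes for both were. Csf1r, the M-CSF receptor of the macrophage lineage, had a level of -1.57 ± 0.23 (SD, n = 4). The GM-CSF binding chain Csf2ra read -0.14, -0.10, -0.14 and -0.10, the steadiest of the receptor genes, with an SD lower than that of all but 0.391% of the detected genes. Its signalling partner Csf2rb was called on no array, with a signal that was significant on all 4. Of the chains that receive interleukin 15, Il2rg had a level of -3.16 ± 0.36 (SD, n = 4), Il2rb read -3.22, -5.89, -5.71 and -4.62, and Il15ra had no named probe. Il2rb was highest on replicate 1, with a 6.34-fold range over the arrays, and its other probe was called on no array. Il12rb1, the chain shared by interleukins 12 and 23, was called on no array, Il12rb2 on replicate 2 only, and Il23r had no named probe.

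**Figure D4:**
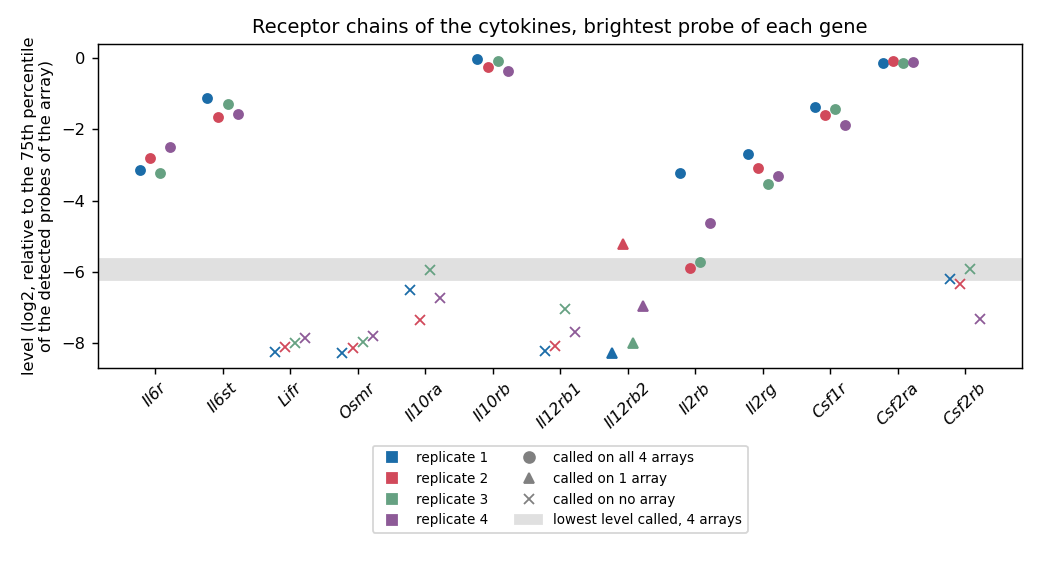
Level of the brightest probe of the 13 measured receptor genes on each array (log2 relative to the 75th percentile of detected probes of the array). Circles are genes called on all 4 arrays, triangles a gene called on 1 array and crosses genes called on no array, and the grey band spans the lowest called level of the 4 arrays (-6.23 to -5.63). Il6r, Il6st, Il10rb, Il2rg, Csf1r and Csf2ra lie above the band on all arrays, and Il2rb reaches down into it on replicates 2 and 3.

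Signalling genes behind these receptors were mostly called. Of 16 Janus kinase, STAT and feedback genes, 12 (75%) were called on all arrays, against 47.9% of all named genes, among them Jak1, Stat3, Stat5a and the feedback inhibitors Socs3 and Cish. Stat3, which carries the interleukin 6 and 10 signals, had a level of -0.64 ± 0.20, and Socs3, its known target, of -2.02 ± 0.31 (SD, n = 4 each). Stat4, the factor downstream of interleukin 12, and Jak3, the kinase on the Il2rg chain, were called on no array. Nor were the feedback genes Socs1 and Socs2. Among 21 measured regulators of cytokine transcription and mRNA decay, 17 (81.0%) were called on all arrays, including the Il6 activators Rela at -0.24 ± 0.14 and Cebpb at 3.42 ± 0.27 (SD, n = 4 each). The other 4, Irf8, Fos, Fosl1 and Zfp36, were called on no array. The mRNA decay enzyme gene Zc3h12a, whose product degrades Il6 transcripts, had a level of -1.38 ± 0.09 (SD, n = 4). Stat3, Socs3, Rela, Cebpb and Zc3h12a each read higher on replicates 2 and 4 than on replicates 1 and 3. Of the receptor genes above, Il6r and Csf2ra did so too, while Il6st, Il10rb and Csf1r read lower on replicates 2 and 4. The SDs of all these genes include that split of the arrays. Of 10 known downstream targets, 8 (80%) were called on all arrays. Among these 8, Socs3 and Cish are also on the signalling list and Bcl3 on the list of regulators. The lists were chosen for their known roles, and nothing particular to them is read from these shares.

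Most other secreted interleukins and growth factors were not called either. Of 29 listed, 24 had a named probe. On all 4 arrays 4 (16.7%) were called, against 47.9% of all named genes: Il7, Ebi3, Csf3 and Flt3lg. Il7 had a 2.71-fold range over the arrays. It read -0.39 and -0.32 on replicates 1 and 3, and -1.60 and -1.76 on replicates 2 and 4. Csf3, the granulocyte member of the colony stimulating factors, read -3.07, -3.00, -3.15 and -3.19 on replicates 1 to 4. It was called on every array, unlike Csf1 and Csf2, and varied little (SD 0.09). Ebi3, a cytokine subunit that can pair with the product of Il12a, had a level of -1.38 ± 0.11 (SD, n = 4). It read higher on replicates 2 and 4 than on replicates 1 and 3. Il34, the other ligand of Csf1r, was called on no array. Of other Il6st ligands on the list, Il11 was called on 1 array, Cntf on 2 and Ctf1 on none, and Clcf1 and Il27 had no named probe.

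**Figure D5:**
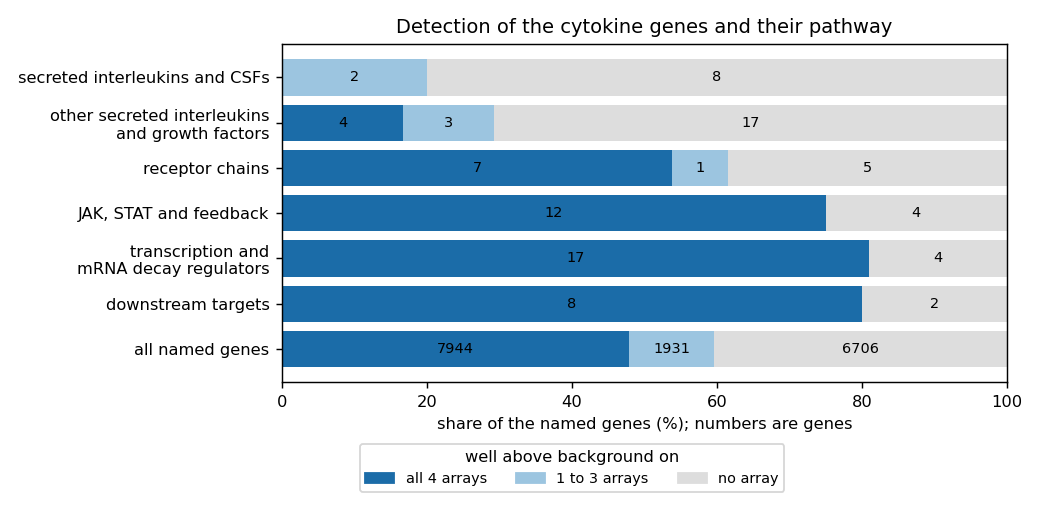
Share of named genes called well above background on all 4 arrays, on 1 to 3 arrays or on none, for the 10 cytokine genes, the pathway lists and all named genes (horizontal axis, %, with numbers of genes in the bars). The 10 cytokines have 2 genes called on some arrays and 8 on none, and the lists of signalling genes, regulators and targets have the highest shares called on all arrays. The list of targets shares genes with those of signalling genes and regulators.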

How the data were processed

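Total RNA of 4 exposed cultures was hybridised to 1-colour Agilent arrays, 1 array each. Per the file headers and the submitters' processing notes, the deposited intensity of each spot came from Agilent Feature Extraction 11.0.1.1, background-subtracted and detrended within the array, with no scaling between arrays. The other deposited values used were the spot and local background intensity and the software's flags of 0 or 1. Probes were named by matching accessions, without version, to the RefSeq table of GRCr8 (21109 of 45598 probes). Outlier spots were left out, and repeated spots were averaged on the log2 scale. Each array's log2 intensity was scaled on the 75th percentile of the probes called on all arrays (34.2%). A gene was called where any probe was, and took its brightest probe. No test between groups was made, as there was 1 group. Dixon's outlier check was run on 9 genes and flagged 0 at its critical value of 0.829. The only measure of precision between cultures is the SD over 4 arrays, which may be technical in part. Combined errors are the root of the summed squares of 2 spots' software errors, after scaling. Alternatives were other calls, scalings and normexp (limma 3.58.1, R 4.3.3, offset 50) on the median spot intensity. The planned mean was not used here. The genes named are all members, the receptor chains and genes of the other lists, singled out by role. Members and lists were chosen with earlier results of these data known.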

Additional observations from a re-analysis of the deposited data

How the results depend on the processing

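The count of cytokine genes called on all 4 arrays was 0, also above the 99th percentile of the negative controls and where all probes of a gene had to be called. It was 2 (Lif and Osm) with the software's weaker call of a positive and significant signal or with 1 array sufficing, and 0 to 1 when a replicate was left out, with Lif called throughout without replicate 2. Of the 56 member spots, 5 were called, 15 with the weaker call and 0 above the 99th percentile of negative controls, and 3 to 5 of 42 when a replicate was left out. The Lif level of -5.25 became -1.88 when scaled on the same percentile of every probe, 1.86 when scaled on the array median, -4.14 with normexp and -6.69 as the mean of both probes, and that of Osm (-5.97) became -2.61, 1.13 and -4.46 with the same 3 changes of scaling and background. The SD of Lif (0.83) was 0.329 with normexp and 0.503 as the mean of both probes, and 0.388 to 1.01 when a replicate was left out. The SD of Osm (0.18) was 0.0952 with the percentile of every probe, 0.122 with the array median and 0.115 with normexp, and 0.102 to 0.224 when a replicate was left out. Levels ran from -5.52 to -4.95 for Lif and from -6.04 to -5.81 for Osm over the arrays left out. The normexp setting added an offset of 50 to every intensity, which by arithmetic narrows ratios between weak signals. How far this accounts for the moves with normexp was not tested. Nor was the cause of the other moves, apart from the scale's own zero point. The 7 receptor genes called on all arrays were 5 to 10 under the other settings. The median SD of called members and the mean over called probes could not be computed, as no member was called on all arrays. Signals near background limit every value of the cytokines: an intensity under 36.2 to 56.2, by array, was not called and is best read as a bound, also where it enters a mean level. With 1 group, no paired analysis was possible because there was nothing to pair.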
